A study of Mus musculus with 8 samples.

Results

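The genes described here carry the signal of sphingosine-1-phosphate, a lipid messenger of blood vessels, in sorted mouse kidney cells. A total of 7 genes were named, the receptors S1pr1, S1pr2 and S1pr3, the kinases Sphk1 and Sphk2, the exporter Spns2 and the lyase Sgpl1. They were found by symbol among the 17326 gene lines that held all 8 counts, and 6 of the 7 were there. The line of Spns2 held 7 counts, so this gene was not analysed here. RNA was measured in 8 libraries of cells sorted from kidney, in 4 groups of 2. The groups were endothelium and podocytes from EMCN+/+ mice (wild type) and endothelium and podocytes from EMCN-/- mice (knockout). Emcn encodes endomucin, a sialomucin of the endothelial surface coat, and the series' text places both cell types in the glomerulus, the filter of the kidney. The labels gave no treatment, strain, sex or age, and did not state how the EMCN-/- allele was made. They also did not state whether a library came from 1 animal or from pooled animals, so the p-values below measure the spread between these libraries, which may be partly technical.

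Sphingosine-1-phosphate is made inside cells when a sphingosine kinase phosphorylates sphingosine, which ceramidases release from ceramide. It leaves endothelial cells through the transporter SPNS2, travels in blood bound to apolipoprotein M and albumin, and acts on G protein-coupled receptors at the cell surface. S1PR1 couples to Gi and Rac and is known to tighten endothelial junctions and to help keep the glycocalyx in place, whereas S1PR2 and S1PR3 can also couple to G12/13 and Gq. The signal ends when phosphatases return the lipid to sphingosine or when the lyase SGPL1 cleaves it for good. Loss of SGPL1 in humans is a known cause of nephrotic syndrome.

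On the complete lines the libraries held between 10478956 and 17386042 counts. Emcn checked the genotype labels, with 1972 and 1828 CPM (a gene's counts brought to a common library size with edgeR's TMM factors) in wild-type endothelium and 173 and 179 CPM in knockout endothelium. In podocyte libraries Emcn was at 74.1 and 35.9 CPM in wild type and at 5.59 and 4.94 CPM in knockout. The cell-type labels were checked against markers. The 10 endothelial markers on complete lines, Pecam1, Cdh5 and Kdr among them, summed to between 8785 and 10553 CPM in the 4 endothelium libraries and to between 469 and 703 CPM in the 4 podocyte libraries. The 5 podocyte markers on complete lines, Synpo and Wt1 among them, summed to between 7438 and 16126 CPM in podocytes and to between 1073 and 2056 CPM in endothelium. Nphs1, Pdgfrb and Ptprc were not on complete lines and were not used here. Tubule RNA was present in both populations, with 7 markers that summed to between 2472 and 12043 CPM in endothelium and to between 2790 and 7991 CPM in podocytes, and with Lrp2 at 39.4 to 183 CPM over the 8 libraries. In sorted bulk samples, fewer cells of a type and less RNA per cell cannot be told apart.

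S1pr1 (Entrez 13609, GRCm38 chr3:115710433-115715055) was the receptor gene with the clearest difference between the cell types. It stood at 423 and 363 CPM in replicates 2 and 3 of wild-type endothelium and at 530 and 330 CPM in those of knockout endothelium. Wild-type podocytes had 22.8 and 19.8 CPM, and knockout podocytes had 16.2 and 33.0 CPM. Every endothelium library thus lay above every podocyte library, while the genotypes overlapped within each cell type. Over both genotypes S1pr1 was 18.0-fold higher in endothelium, a log2 fold change of 4.17 (SE 0.27, 95% interval 3.56 to 4.77, edgeR adjusted p 3.85e-06), and it ranked 79th by p among 16477 genes tested. In wild type alone it was 4.2 (SE 0.39, edgeR adjusted p 0.000102), and in knockout alone 4.13 (SE 0.38, edgeR adjusted p 0.000119). Over both genotypes 3 of the 6 members passed (S1pr1 higher in endothelium, Sphk2 and Sgpl1 lower), and 18.3% of all genes tested passed, with 7.19% higher and 11.1% lower. In wild type 1 member passed, higher in endothelium, where 8.99% of all genes passed and 4.26% were higher. In knockout 2 members passed, 1 in each direction, where 10.4% of all genes passed, 4.28% higher and 6.09% lower. The libraries of endothelium lay above those of podocytes without overlap for 9.59% of all genes. The direction of calls over all genes depended on the scaling: 39.2% of calls over both genotypes were higher in endothelium with TMM and 54.9% with library size alone, and 41.3% and 60.6% in knockout. Library size alone moved the median log2 fold change of all genes by 0.17 over both genotypes and by 0.28 in knockout.

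The S1pr1 level of the podocyte libraries was 5.58% of that of the endothelium libraries. For the summed endothelial markers the same share was 5.56%, and for single markers it ran from 2.84% for Egfl7 to 17.6% for Erg. Knockout podocyte replicate 3 had the most S1pr1 of the podocyte libraries, and the endothelial markers were split there. Pecam1 (48.7 CPM against 30.0 to 45.8 CPM in the other podocyte libraries), Tie1 (35.7 CPM), Flt1 (25.7 CPM) and Erg (2.80 CPM) were also highest in it. Cdh5, Ehd3 and Eng were lowest in it among podocyte libraries, at 1.99, 125 and 73.8 CPM, as was the sum of the markers. Kdr, Tek and Egfl7 lay between. The part of endothelial RNA in the S1pr1 counts of podocyte libraries was not tested.

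**Figure D1:**
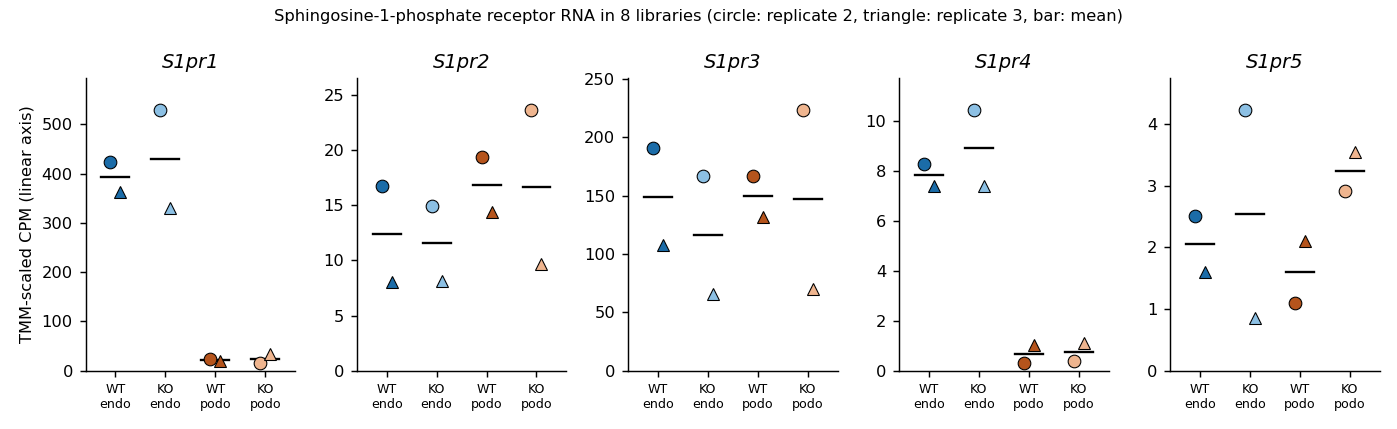
TMM-scaled CPM of the 5 sphingosine-1-phosphate receptor genes in each library on linear axes that start at 0, with the 4 groups (WT, wild type; KO, knockout; endo, endothelium; podo, podocytes) along the x axis and the group mean as a bar. S1pr1 and S1pr4 separate the cell types, with all 4 endothelium libraries above all 4 podocyte libraries, and S1pr2 and S1pr3 are higher in replicate 2 than in replicate 3 of every group.

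S1pr3 (Entrez 13610, chr13:51408618-51422797) was present at similar levels in both cell types. Wild-type endothelium had 190 and 108 CPM in replicates 2 and 3, and knockout endothelium had 167 and 65.9 CPM. Wild-type podocytes had 167 and 132 CPM, and knockout podocytes had 224 and 70.0 CPM. The groups all overlapped, and the log2 fold change of endothelium against podocytes was −0.17 (SE 0.38, 95% interval −1.01 to 0.67, edgeR adjusted p 0.822). That interval spans from a level 0.497 times to a level 1.59 times that of podocytes, so it holds differences in either direction. Without knockout podocyte replicate 2 the value was 0.36, and without knockout endothelium replicate 2 it was −0.58. S1pr3 overlaps the predicted gene Gm32834 in the RefSeq table, and as the use of strand in counting is not given in the sources used here, its counts are uncertain to that extent.

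Replicate 2 had more S1pr3 than replicate 3 in each of the 4 groups. The same held for S1pr2 and for 11.6% of all genes tested. The mitochondrial share of counts went the other way, at 10.1% to 13.3% in the replicate 2 libraries and 16.9% to 26.2% in the replicate 3 libraries, and its part in the S1pr3 and S1pr2 levels was not tested. S1PR3 is known from vascular smooth muscle and mesangial cells. The 7 of 11 mural and mesangial markers that were on complete lines summed to 665 and 434 CPM in replicates 2 and 3 of wild-type endothelium, 524 and 309 CPM in knockout endothelium, 960 and 924 CPM in wild-type podocytes, and 1252 and 482 CPM in knockout podocytes. Itga8, the integrin chain of mesangial cells, was at 482 and 246, 333 and 170.0, 416 and 380, and 455 and 110 CPM in the same order, and made up much of these sums in endothelium. Of the 7 markers, Itga8 and Des were higher in replicate 2 of all 4 groups. The other 5 were higher in replicate 3 of at least 1 group, such as Ren1, the renin gene, at 1.82 and 104 CPM, and Notch3, at 11.9 and 19.5 CPM, in wild-type podocytes. None of the 7 was at 0 in any library, and the part of these cells in the S1pr3 level was not tested.

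S1pr2 (Entrez 14739, chr9:20965952-20976793) was a minor receptor in both cell types. It was at 16.8 and 8.03 CPM in wild-type endothelium, 14.9 and 8.17 CPM in knockout endothelium, 19.4 and 14.4 CPM in wild-type podocytes and 23.7 and 9.66 CPM in knockout podocytes. All groups overlapped. Endothelium against podocytes gave a log2 fold change of −0.49 (SE 0.36, 95% interval −1.27 to 0.30, edgeR adjusted p 0.413). With 1 library left out this value ran from −0.80 (without wild-type endothelium replicate 2) to −0.096 (without knockout podocyte replicate 2).

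The receptors S1pr4 and S1pr5, known mainly from blood cells and from natural killer cells and oligodendrocytes, completed the family. S1pr4 was at 8.28 and 7.38 CPM in wild-type and 10.4 and 7.40 CPM in knockout endothelium, against 0.324 and 1.02 CPM in wild-type and 0.373 and 1.11 CPM in knockout podocytes. It had between 86 and 148 counts in an endothelium library and between 5 and 15 in a podocyte library. Between the cell types the log2 fold change was 3.57 (SE 0.47, 95% interval 2.52 to 4.62, edgeR adjusted p 0.000357), and no library of one cell type reached the range of the other. The 7 of 10 immune markers on complete lines summed to between 30.4 and 63.0 CPM in endothelium and to between 86.0 and 126 CPM in podocytes, where most of the sum was Csf1r. Of the 6 immune markers tested, 5 had higher values in endothelium, as S1pr4 did, and 1 of these passed, Lyz2 at 21.4 ± 10.6 against 7.89 ± 4.08 CPM (SD, n = 4). Csf1r passed in the other direction, and the part of immune cells in the S1pr4 level was not tested. The B cell marker Cd79a did not exceed 0.532 CPM in any library. S1pr5 was at most 4.23 CPM, its groups overlapped between cell types, and the log2 fold change was 0.01 (SE 0.52, edgeR adjusted p 0.992).

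Levels of different receptors were compared per kilobase of exon, since longer transcripts give more reads. On that scale the 5 receptors summed to between 128 and 220 CPM per kilobase in endothelium and to between 29.9 and 60.4 in podocytes. S1pr1 made up 79.5% ± 4.58 (SD, n = 4) of receptor RNA in endothelium, with a range of 73.6% to 84.8% over the libraries, and S1pr3 made up 16.9% ± 4.53. In podocyte libraries S1pr3 made up 71.8% ± 13.4 (SD, n = 4), S1pr1 19.2% ± 11.8 and S1pr2 5.78% ± 0.539. The ranges of the 2 cell types did not overlap for S1pr1 (8.81% to 36.3% in podocytes) or for S1pr3 (11.6% to 22.6% against 52.4% to 82.9%). Knockout podocyte replicate 3 stood apart from the other podocyte libraries, with S1pr1 at 36.3% and S1pr3 at 52.4%. A share of this kind depends on all 5 genes, and of the pair S1pr1 passed between the cell types while S1pr3 did not.

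**Figure D2:**
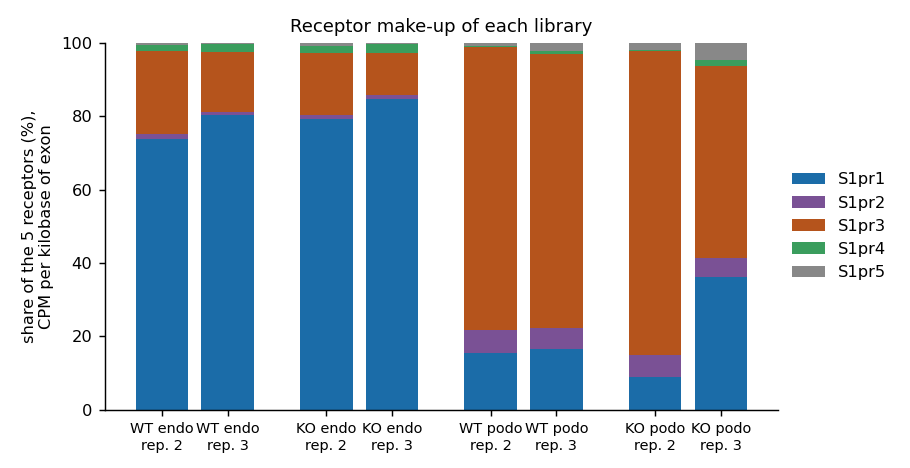
Share of each of the 5 receptors in the summed receptor RNA of each library, in percent, from CPM per kilobase of exon; each bar is 1 library (rep., replicate). S1pr1 fills 73.6% to 84.8% of the endothelium bars, and S1pr3 fills 52.4% to 82.9% of the podocyte bars.

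Of the kinases, Sphk2 (Entrez 56632, chr7:45709463-45718002), a form found largely in the nucleus and at inner membranes, was higher in podocytes. Wild-type podocytes had 59.6 and 53.9 CPM and knockout podocytes 38.8 and 36.7 CPM, against 33.9 and 35.2 CPM in wild-type and 24.2 and 31.6 CPM in knockout endothelium. The 4 podocyte libraries all lay above the 4 endothelium libraries, by a narrow margin for knockout podocytes against wild-type endothelium. The log2 fold change of endothelium against podocytes was −0.58 (SE 0.16, 95% interval −0.94 to −0.22, edgeR adjusted p 0.0319), which corresponds to a 1.49-fold difference. This call passed under 7 of 16 alternatives, with adjusted p-values from 0.0248 to 0.144. It was lost with DESeq2 and with its size factors, with library-size scaling, and when either wild-type endothelium library, either wild-type podocyte library, knockout endothelium replicate 2 or knockout podocyte replicate 2 was left out, with log2 fold changes then between −0.62 and −0.49 for the libraries left out. Within a genotype Sphk2 did not pass (edgeR adjusted p 0.0919 in wild type and 0.297 in knockout). Sphk2 overlaps Dbp and Rpl18 in the RefSeq table, which makes its counts uncertain where the overlap was counted.

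Sphk1 (Entrez 20698, chr11:116530836-116536675), the cytosolic and inducible kinase, differed between the replicates of each wild-type group by more than the wild-type groups differed. It was at 11.9 and 32.4 CPM in replicates 2 and 3 of wild-type endothelium and at 14.9 and 35.0 CPM in those of wild-type podocytes. Knockout endothelium had 9.38 and 13.4 CPM, and knockout podocytes had 20.2 and 19.1 CPM. In knockout alone the log2 fold change of endothelium against podocytes was −0.79 (SE 0.50, edgeR adjusted p 0.398), which did not pass. The highest Sphk1 values were those of replicate 3 of both wild-type groups. These libraries also had the largest sums of the 7 tubule markers, 12043 and 7991 CPM, which were mostly Umod at 9554 and 6018 CPM. The tubule markers Lrp2, Cubn, Aqp1 and Miox were instead highest in knockout podocyte replicate 2, at 183, 46.3, 1084 and 829 CPM, and the part of tubule RNA in the Sphk1 counts was not tested. Endothelium differed from podocytes by −0.48 on the log2 scale (SE 0.35, 95% interval −1.26 to 0.30, edgeR adjusted p 0.412). With 1 library left out it ran from −0.93 (without wild-type endothelium replicate 3) to −0.11 (without wild-type podocyte replicate 3). Per kilobase of exon the ratio of Sphk1 to Sphk2 was between 0.268 and 0.694 in 7 libraries and 0.987 in wild-type endothelium replicate 3.

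Sgpl1 (Entrez 20397, chr10:61098642-61147684), the lyase that removes sphingosine-1-phosphate irreversibly, was also higher in podocytes. It stood at 197 and 174 CPM in wild-type and 189 and 143 CPM in knockout podocytes, against 113 and 125 CPM in wild-type and 67.3 and 88.7 CPM in knockout endothelium. No endothelium library reached the lowest podocyte library. The log2 fold change of endothelium against podocytes was −0.87 (SE 0.17, 95% interval −1.24 to −0.50, edgeR adjusted p 0.00438), a 1.83-fold difference. It was −1.09 (SE 0.24, edgeR adjusted p 0.0152) in knockout and −0.65 (SE 0.24, edgeR adjusted p 0.146) in wild type, and the change of this difference with genotype was −0.44 (SE 0.33, edgeR adjusted p 1), with a range of −0.66 (without knockout endothelium replicate 3) to −0.23 (without knockout podocyte replicate 2) over the libraries left out. The Sgpl1 call in knockout held in 13 of 17 alternatives. It was lost without replicate 2 of knockout endothelium or of knockout podocytes, with library size alone and with only the compared libraries. With 1 library left out the knockout value ran from −1.31 to −0.88. Libraries without overlap in this direction, all endothelium below all podocytes, were found for 12.3% of all genes tested. Of the 16 genes of the response to tissue dissociation that were tested, 6 were also lower in endothelium and 0 higher over both genotypes (median log2 fold change −0.53), where 11.1% of all genes were lower. In knockout 6 were lower (median −0.87) and in wild type 1 (median −0.14), where 6.09% and 4.73% of all genes were lower. Their part in the cell-type differences of Sgpl1 and Sphk2 was not tested.

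The DNA before the start of the pair of genes that were higher in podocytes is shown because these members passed in the same direction. The windows are the 250 bases before each start, from RefSeq on GRCm38.p6, read 5′ to 3′ on the minus strand, and Sphk2 has another start, which is not shown. Capitals mark CACCC, a core recognised by KLF and SP factors, and TTCCGG, a core of ETS factor sites, on either strand (GGGTG and CCGGAA on the other). The Sphk2 window is chr7:45718003-45718252 and the Sgpl1 window is chr10:61147685-61147934.
Sphk2: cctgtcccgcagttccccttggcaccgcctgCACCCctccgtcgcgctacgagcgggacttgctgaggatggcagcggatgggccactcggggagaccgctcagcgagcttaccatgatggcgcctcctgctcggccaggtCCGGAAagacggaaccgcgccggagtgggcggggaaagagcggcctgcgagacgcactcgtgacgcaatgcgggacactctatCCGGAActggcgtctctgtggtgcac
Sgpl1: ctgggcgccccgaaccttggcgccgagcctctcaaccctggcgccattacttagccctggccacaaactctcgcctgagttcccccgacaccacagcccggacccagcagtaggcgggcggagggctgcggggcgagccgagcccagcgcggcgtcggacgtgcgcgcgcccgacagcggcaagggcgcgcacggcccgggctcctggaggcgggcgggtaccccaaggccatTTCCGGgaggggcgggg
The Sphk2 window held TTCCGG at 2 places and CACCC at 1, and the Sgpl1 window held TTCCGG at 1 place and CACCC at 0. The window of the other Sphk2 start, chr7:45715208-45715457, held TTCCGG at 0 places and CACCC at 2, so TTCCGG was shared with Sgpl1 by 1 of the 2 Sphk2 windows. Of 32851 RefSeq windows of the same length, 12.0% held TTCCGG and 52.0% held CACCC. The windows of these genes are rich in G and C, at 67.6% and 74.8%. A match describes letters only, and the data hold no measure of factor binding.

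**Figure D3:**
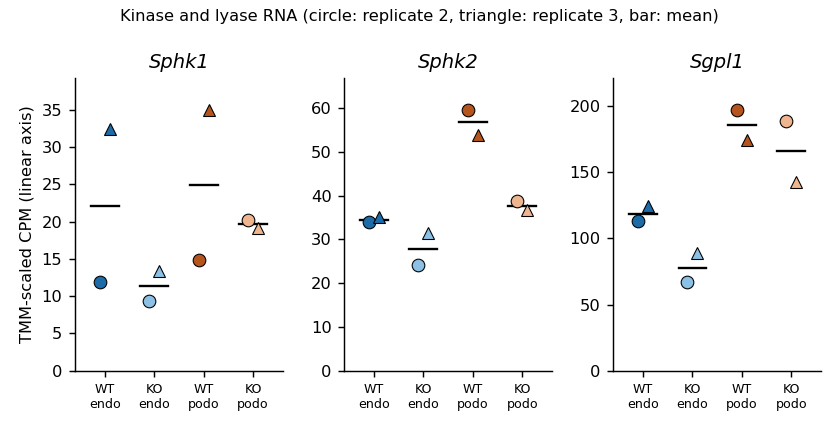
TMM-scaled CPM of the kinases Sphk1 and Sphk2 and of the lyase Sgpl1 in each library on linear axes that start at 0, by group, with the group mean as a bar. Sphk2 and Sgpl1 are higher in every podocyte library than in every endothelium library, and the 2 highest Sphk1 values belong to replicate 3 of the wild-type groups.

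Per kilobase of exon, the order of the genes differed between the cell types in wild type. In wild-type endothelium S1pr1 came first with 129 ± 13.9 CPM per kilobase (SD, n = 2), followed by S1pr3 with 33.4 ± 13.1 and Sgpl1 with 28.7 ± 1.98, which overlapped. Sphk2 with 8.30 ± 0.219 and Sphk1 with 5.70 ± 3.74 overlapped as well, and S1pr2 was lowest of the 6 with 1.94 ± 0.969. In wild-type podocytes Sgpl1 came first with 45.0 ± 3.92 CPM per kilobase (SD, n = 2), then S1pr3 with 33.5 ± 5.63 and Sphk2 with 13.7 ± 0.967. S1pr1 with 7.0 ± 0.695 and Sphk1 with 6.42 ± 3.66 overlapped, and S1pr2 again had the lowest level, 2.64 ± 0.553. In knockout podocytes Sgpl1 (45.8 and 34.5 CPM per kilobase in replicates 2 and 3) and S1pr3 (50.1 and 15.7) overlapped, and S1pr3 was above Sgpl1 in replicate 2. In knockout endothelium S1pr1 again came first (174 and 108), and S1pr3 (37.3 and 14.8) and Sgpl1 (16.3 and 21.5) overlapped.

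The loss of Emcn was then compared with wild type in each cell type. None of the 6 members passed the threshold in endothelium, in podocytes, over both cell types or in the interaction (edgeR), where 1, 1, 1 and 0 genes of 16477 passed (0.00607%, 0.00607%, 0.00607% and 0%), the 1 gene being Emcn. At an unadjusted p under 0.05 there was 1 member in endothelium, 1 in podocytes, 2 over both cell types and 0 in the interaction, and all genes passed that level in 5.49%, 4.43%, 8.59% and 2.6% of cases. DESeq2 also called 0 members in each, with 2, 0, 1 and 0 at an unadjusted p under 0.05. Of all genes, 6.65%, 4.81%, 9.15% and 2.98% passed that level with DESeq2. With limma voom 0 members were called, and 1, 1, 2 and 0 passed that level, against 8.79%, 3.69%, 9.96% and 2.39% of all genes.

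S1pr1 did not pass between the genotypes. Its log2 fold change in knockout was 0.13 (SE 0.34, 95% interval −0.62 to 0.88, edgeR adjusted p 0.910) in endothelium and 0.21 (SE 0.35, 95% interval −0.56 to 0.97, edgeR adjusted p 0.993) in podocytes. The endothelial interval runs from 0.651 to 1.83 times the wild-type level. The sign turned without knockout endothelium replicate 2 (−0.26) and, in podocytes, without knockout podocyte replicate 3 (−0.40). S1pr3 had −0.36 (SE 0.54) and −0.03 (SE 0.53) in the same comparisons, and S1pr2 −0.10 (SE 0.51) and −0.02 (SE 0.50). Their 95% intervals reached at least 1 log2 unit downwards.

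Sgpl1 had the smallest p among the members in endothelium, where both knockout libraries (67.3 and 88.7 CPM) lay below both wild-type libraries (113 and 125 CPM). The log2 fold change was −0.61 (SE 0.24, 95% interval −1.13 to −0.08, unadjusted p 0.028, edgeR adjusted p 0.716), so it did not pass. It was −0.28 with library size alone. Libraries of knockout endothelium lay below those of wild type without overlap for 19.7% of all genes tested. Podocyte markers had negative values in knockout endothelium in 5 of 5 (median log2 fold change −0.54). Of 5 lymphatic endothelial markers, 4 had positive values (median 2.23). The 5 summed to 47.3 and 50.8 CPM in knockout against 31.6 and 19.5 CPM in wild type. The exception was Prox1, at 5.29 and 10.7 CPM in knockout and 7.90 and 8.69 CPM in wild type. Lyve1, Ccl21a and Mmrn1 did not exceed 1.29, 0.532 and 3.57 CPM in wild-type endothelium. The part of podocyte and lymphatic RNA in the Sgpl1 value was not tested. In podocytes the Sgpl1 values of knockout and wild-type libraries overlapped, and the log2 fold change was −0.16 (SE 0.24, edgeR adjusted p 0.986).

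Sphk2 was the member with the smallest p in podocytes. Knockout podocytes had 38.8 and 36.7 CPM against 59.6 and 53.9 CPM in wild type, a log2 fold change of −0.59 (SE 0.23, 95% interval −1.10 to −0.08, unadjusted p 0.0272, edgeR adjusted p 0.978). Of all genes tested, 16% lay lower in knockout podocytes without overlap. The 5 podocyte markers summed to 7438 and 9224 CPM in knockout and 16126 and 10241 CPM in wild-type podocytes, and 5 of 5 had negative log2 fold changes. Their part in the Sphk2 values was not tested. In endothelium the log2 fold change of Sphk2 was −0.31 (SE 0.23, edgeR adjusted p 0.727), and over both cell types −0.45 (SE 0.16, 95% interval −0.81 to −0.09, unadjusted p 0.0194, edgeR adjusted p 0.558). With 1 library left out the endothelial value ran from −0.52 (without knockout endothelium replicate 3) to −0.14 (without knockout endothelium replicate 2). With library size alone it was 0.0093, and the value over both cell types was −0.23. Sphk2 lay lower in knockout without overlap in both cell types, a pattern that 6.04% of all genes tested shared. Sphk1 had −0.96 (SE 0.50, edgeR adjusted p 0.716) in endothelium, where the genotypes overlapped and where the value without wild-type replicate 3 was −0.07. Beside these values, the 16 of 18 genes of the response to tissue dissociation on complete lines summed to 41416 and 47625 CPM in wild-type and 26143 and 33854 CPM in knockout endothelium, and to 42674 and 35277 CPM in wild-type and 33937 and 30073 CPM in knockout podocytes. More than any other genes, Hspa1a and Hspa1b made up these sums. In endothelium 16 of the 16 had negative log2 fold changes (median −0.72), and in podocytes 11 had negative and 5 positive ones (median −0.09). Their part in the enzyme levels was not tested.

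**Figure D4:**
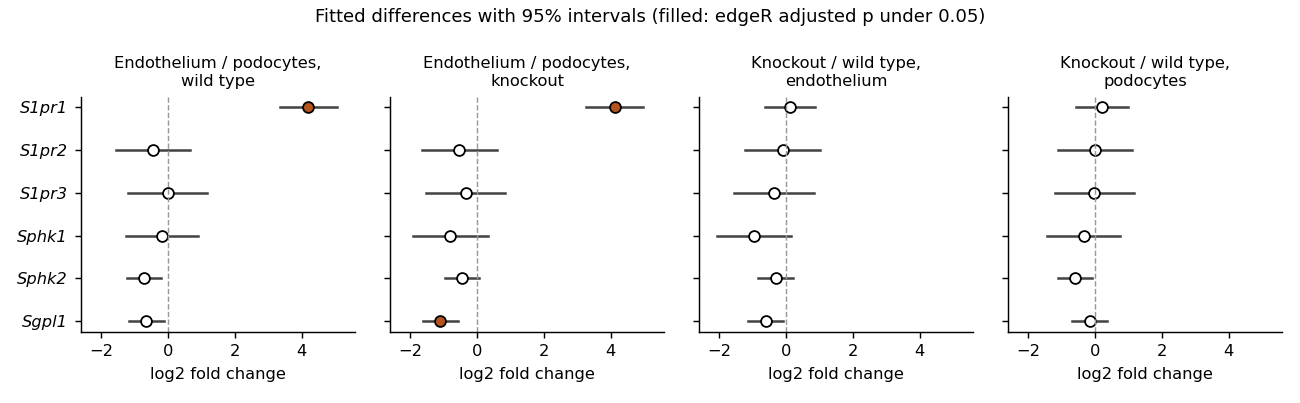
Fitted log2 fold changes (x axis) of the 6 members with 95% intervals in 4 comparisons, where filled points passed an edgeR adjusted p under 0.05. S1pr1 lies near 4 in both comparisons of endothelium with podocytes, Sgpl1 passed in knockout and not in wild type (the difference between the genotypes did not pass), and in the comparisons of knockout with wild type 0 members passed.

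Other genes of the pathway were examined from lists. Of 124 listed genes, 87 were on complete lines and tested, and 33 of these differed between endothelium and podocytes over both genotypes, with 16 higher and 17 lower in endothelium. Over all genes 18.3% passed, 7.19% higher and 11.1% lower, and each list's count below is to be read against these shares. The median log2 fold change was 0.03, against 0.00 over all genes. Between the genotypes 0 of the 87 passed in endothelium or in podocytes (edgeR), with 4 and 5 at an unadjusted p under 0.05, a level that 5.49% and 4.43% of all genes passed. DESeq2 also called 0 in each, with 8 and 5 at that level (6.65% and 4.81% of all genes), and limma voom called 0, with 10 and 5 (8.79% and 3.69% of all genes). The median log2 fold change in knockout was −0.17 in endothelium and −0.14 in podocytes, against 0.01 and 0.02 over all genes.

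A pair of ecto-enzymes that dephosphorylate sphingosine-1-phosphate outside the cell was higher in endothelium. Of the 5 phosphatases tested, 2 were higher there and 0 lower over both genotypes, where 7.19% of all genes were higher and 11.1% lower. In knockout alone 2 phosphatases were higher in endothelium and 1 was lower, where 4.28% of all genes were higher and 6.09% lower. The lower one was Plpp2 (log2 fold change −1.03, SE 0.29, edgeR adjusted p 0.047), named after its value was seen. Plpp1, an ecto-phosphatase of lipid phosphates, was at 2796 and 2562 CPM in wild-type and 2943 and 3231 CPM in knockout endothelium, against 319 and 216 CPM in wild-type and 173 and 213 CPM in knockout podocytes (log2 fold change 3.66, SE 0.22, edgeR adjusted p 2.67e-06). Plpp3, a related ecto-phosphatase, was at 631 to 827 CPM in endothelium and 180 to 237 CPM in podocytes (log2 fold change 1.82, SE 0.17, edgeR adjusted p 3.84e-05). Among 5 ceramidases, 1 was higher in endothelium and 0 were lower. It was Acer2, the alkaline ceramidase of the Golgi, at 263 to 404 CPM against 24.3 to 31.6 CPM (log2 fold change 3.59, SE 0.20, edgeR adjusted p 1.7e-06). Plpp1 overlaps Mtrex in the RefSeq table.

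Over all 37 tested genes of the sphingosine-1-phosphate and sphingolipid lists, 5 were higher and 7 lower in endothelium, against 7.19% and 11.1% of all genes. Of the 2 of 6 carriers and transporters tested, 1 was lower in endothelium. This was Apom, the plasma carrier made in liver and in kidney proximal tubule, with a log2 fold change of −3.13 (SE 0.66, edgeR adjusted p 0.00728). Its podocyte libraries had 6.81 and 25.9 CPM in wild type and 36.6 and 6.05 CPM in knockout, in the order of replicates 2 and 3. The proximal tubule marker Miox had 101 and 355 CPM and 829 and 76.6 CPM in the same libraries, and its part in the Apom level was not tested. Of 9 of 17 genes of ceramide synthesis tested, 3 were lower in endothelium and 1 was higher. Cers6, a ceramide synthase, had −2.66 (SE 0.35, edgeR adjusted p 0.000332), and Ormdl3 and Ormdl1, which restrain the first step of synthesis, had −1.36 (SE 0.16) and −0.87 (SE 0.19), while the synthase Cers4 had 0.83 (SE 0.17). Of 11 of 16 enzymes of sphingomyelin and glycolipids, 3 were lower in endothelium, namely Galc, the lysosomal galactosylceramidase (−2.38, SE 0.25), Cerk, the ceramide kinase (−1.61, SE 0.30), and Ugt8a, which makes galactosylceramide (−1.39, SE 0.41). Among 3 of 4 genes for the fate of the lyase product, the smallest edgeR adjusted p was 0.193. Cers6, Cerk and Ugt8a each overlap a predicted gene in the RefSeq table.

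**Figure D5:**
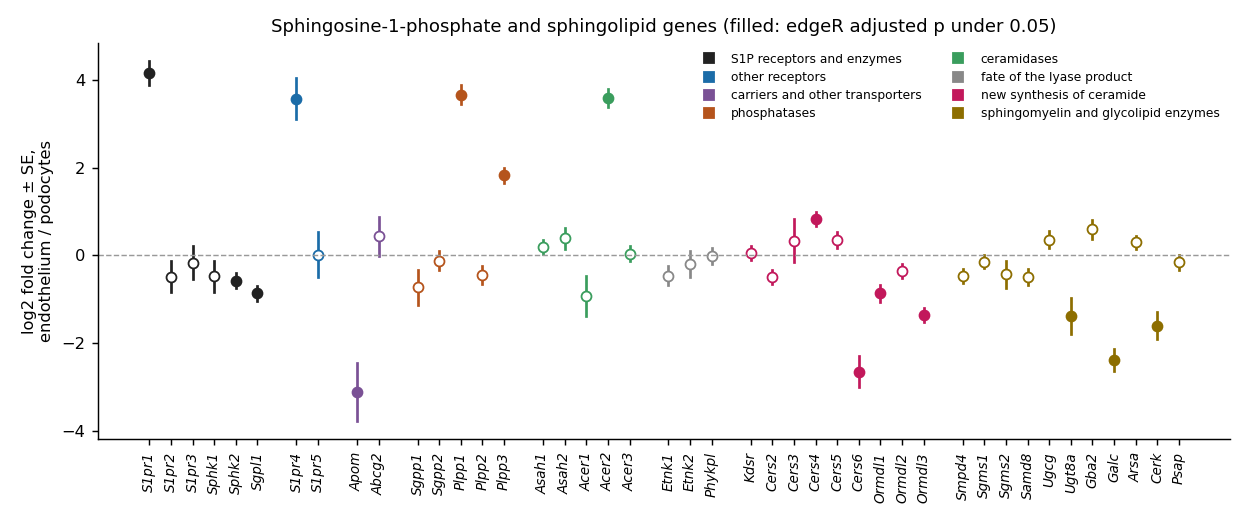
Log2 fold change of endothelium against podocytes over both genotypes (y axis, ± SE) for each tested gene of the sphingosine-1-phosphate and sphingolipid lists, coloured by list, where filled points passed an edgeR adjusted p under 0.05. S1pr1, S1pr4, Plpp1 and Acer2 lie above 3, and Apom, Cers6 and Galc lie below −2.

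Some signalling genes around the receptors differed between the cell types, where 18.3% of all genes passed. Of 9 of 11 genes of receptor desensitisation and trafficking, 4 were higher in endothelium and 0 lower. These were Rgs3 and Rgs16, which speed the shut-off of Gi and Gq, with 1.91 (SE 0.21) and 2.06 (SE 0.31), Cd69, which draws S1PR1 off the surface of lymphocytes, with 2.96 (SE 0.46), and the receptor kinase Grk2 with 1.17 (SE 0.23). Cd69 was low, at 4.30 to 10.4 CPM in endothelium and 0.590 to 2.18 CPM in podocytes. The part of immune cells in the Cd69 level was not tested. Of 16 small GTPases and regulators, 3 were lower in endothelium, Pak1 (−3.02, SE 0.34), Arhgef12 (−0.85, SE 0.16) and Vav2 (−1.03, SE 0.29), and Rhoc was higher (1.31, SE 0.18), so that 4 of 16 passed, near the share of all genes. Among kinases and related enzymes, Mapk3 was higher (1.49, SE 0.16) and Akt2 was lower (−1.59, SE 0.17). Among 14 of 16 genes of glycocalyx shedding and junctions, 2 were higher and 6 lower. The highest was Cdh5, VE-cadherin, with 3.92 (SE 0.25), and lower were the heparan sulfate proteoglycans Gpc1 (−3.22, SE 0.22), Sdc4 (−2.03, SE 0.25) and Sdc1 (−0.94, SE 0.24) and the tight junction genes Tjp1 (−1.11, SE 0.19) and Cldn5 (−1.11, SE 0.23). Of 6 transcription factors tied to the receptors, Klf4 (1.86, SE 0.18) and Foxo1 (1.2, SE 0.17) were higher in endothelium and 0 were lower. All of these had edgeR adjusted p-values under the threshold in the comparison over both genotypes, and the 7 listed G protein genes were not on complete lines. Rgs3, Pak1, Arhgef12, Cdh5 and Gpc1 overlap other genes in the RefSeq table.

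The genes nearest to each called member in pattern were found by the root mean square difference of log2 CPM over the 8 libraries, after each gene was centred on its mean, among 10080 genes of at least 5 CPM. For S1pr1 these were Flt1, a VEGF receptor, at 0.10 log2 units, the endothelial adhesion receptor Adgrl4 at 0.19 and the lipid phosphatase gene Inpp5d at 0.24, where S1pr1 itself varied by 2.11 around its mean. Flt1 was chosen for this likeness, and its levels were 282 and 225 CPM in wild-type endothelium, 354 and 240 CPM in knockout endothelium, 17.0 and 14.4 CPM in wild-type podocytes and 11.9 and 25.7 CPM in knockout podocytes. For Sphk2, which varied by 0.39, the nearest were Rnf13, Emc2 and Phactr2 at 0.07 to 0.09. For Sgpl1, which varied by 0.51, they were Eif1a, Tmem106b and Ilvbl at 0.08 to 0.09.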

How the data were processed

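Raw counts, keyed by Entrez gene and with 1 column for each of the 8 libraries named after an alignment file, were deposited by the authors, per the file headers. The build mm10 and DESeq2 are named in the submitters' processing notes; the aligner, the counter, the annotation and the use of strand are not given in the sources used here. Of 22533 gene lines, 5207 (23.1%) had a comma in the description and held fewer than 8 counts, and were not analysed here. Complete lines held 10478956 to 17386042 counts per library. Short lines left cells of 3 columns empty, so these deposited counts were recorded as another kind of value.

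Counts were fitted with edgeR 4.0.16 in R 4.3.3 (filterByExpr, 16477 genes, TMM, 1 mean per group, quasi-likelihood F test, Benjamini-Hochberg over all genes tested, threshold 0.05). An SE is the log2 fold change over the square root of F. CPM used TMM-scaled library sizes, and log2 CPM a prior count of 2. Exon lengths came from GENCODE M21 and positions from RefSeq GRCm38.p6. Alternatives used DESeq2 1.42.0, limma 3.58.1, other scalings and filters, a replicate block, the compared libraries only and each library left out; a block with podocyte numbers swapped was added after seeing the data. Scripts were tested on simulated data. Members, lists and the rule for named genes (the members, S1pr4, S1pr5, Emcn, up to 6 listed pathway genes per list past the threshold, 11 markers, and the 3 nearest genes in pattern) were chosen with earlier results of these data known. Other genes of the marker lists, and Plpp2, are named outside this rule. All members passed the filter on low counts. Some results are not reported here.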

Additional observations from a re-analysis of the deposited data

How the results depend on the processing

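S1pr1 (all 3 comparisons of endothelium with podocytes) and Sgpl1 (over both genotypes) kept direction and call in every alternative run, with log2 fold changes for S1pr1 over both genotypes of 3.95 to 4.46 and adjusted p-values for Sgpl1 of 0.00116 to 0.0337. Sphk2 over both genotypes kept its direction and lost its call in 9 of 16. The members called in knockout fell from 2 to 1 with library size alone (Sgpl1 adjusted p 0.069) and with only the compared libraries (0.0552), and ranged from 1 to 2 with a library left out, because Sgpl1 lost its call without replicate 2 of knockout endothelium or of knockout podocytes. Over both genotypes the count was 2 to 3 with a library left out. Genotype calls of members stayed at 0 in all alternatives run, while all-gene counts reached 4 in endothelium, 8 in podocytes and 14 over both cell types with DESeq2 (1 each by edgeR). Of all genes, 2074 to 3435 were called between the cell types over both genotypes (3020 as reported), 769 to 1831 in wild type (1481) and 960 to 2246 in knockout (1709).

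The reversals were among values that did not pass, and the cause was not tested. With library size alone, which moved the median of all genes between the genotypes by 0.33 in endothelium, 0.11 in podocytes, 0.22 over both and 0.21 in the interaction, S1pr3 between cell types became 0.043 over both genotypes and 0.11 in wild type. Against wild type, S1pr2 became 0.20 in endothelium, 0.10 in podocytes and 0.15 over both, S1pr3 0.10 in podocytes and 0.030 over both, and Sphk2 0.0093 in endothelium. In the interaction, S1pr1 became 0.15 and S1pr2 0.095. With a mean of at least 5 CPM, S1pr3 between cell types in wild type became 0.073, S1pr2 in knockout 0.050 in endothelium, 0.038 in podocytes and 0.044 over both, S1pr3 in podocytes 0.023, and in the interaction S1pr1 0.0021 and S1pr2 0.012. S1pr3 in wild type became 0.030 with DESeq2 and with its size factors, and 0.10 with only the compared libraries, and S1pr2 in the interaction became 0.076 with limma voom.

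With each library left out in turn, values that turned ran between these limits. Between cell types, S1pr3 ran from −0.58 to 0.36 over both genotypes, −0.47 to 0.35 in wild type and −1.16 to 0.72 in knockout, S1pr2 from −1.04 to 0.25 in knockout, and Sphk1 from −1.07 to 0.57 in wild type. For knockout against wild type in endothelium, S1pr1 ran from −0.26 to 0.42, S1pr2 from −0.61 to 0.52 and S1pr3 from −1.18 to 0.15. In podocytes, S1pr1 ran from −0.40 to 0.63, S1pr2 from −0.81 to 0.49, S1pr3 from −1.10 to 0.58, Sphk1 from −0.81 to 0.39 and Sgpl1 from −0.39 to 0.023. Over both cell types, S1pr1 ran from −0.14 to 0.37, S1pr2 from −0.46 to 0.25 and S1pr3 from −0.73 to 0.11. In the interaction, S1pr1 ran from −0.51 to 0.52, S1pr2 from −0.59 to 0.70, S1pr3 from −1.16 to 0.73 and Sphk1 from −1.36 to 0.28. A group left with 1 library was assumed to vary like the others.

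The labels do not say what the replicate numbers mark. Correlations of the deviations of same-numbered libraries, across genes, were −0.13 to 0.19, with 3 of 6 between 0.11 and 0.19, so the pairing was not shown and the block was kept as an alternative. A replicate block changed no member's call and turned S1pr2 in the interaction to 0.065. It called 3435 genes over both genotypes. A block with the podocyte numbers swapped, chosen after seeing the data, also changed no member's call. With 2 libraries a group, the SE of a genotype difference within a cell type had a median of 0.43 on the log2 scale over all genes, which limits what could be detected.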
